A study of Mus musculus with 15 samples.

Results

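The genes described here are those of the major histocompatibility complex (MHC, called H2 in the mouse) and of the machinery that loads MHC molecules with peptide, in brown adipose tissue of mice given bisphenol S (BPS) or vehicle. They were taken by symbol: every gene whose symbol starts with H2-, and B2m, Tap1, Tap2, Tapbp, Psmb8, Psmb9, Psmb10, Nlrc5, Ciita, Cd74 and Erap1. The rule gave 45 of the 16774 genes in the table, and 33 of these 45 reached 1 FPKM in at least 7 libraries and were tested, among 12156 genes tested in all. By role, 23 were class I heavy chains, 1 the class I light chain, 5 class II chains, 7 genes of class I peptide supply, and 8 regulators and chaperones. The last gene, H2-Ke6, encodes a hydroxysteroid dehydrogenase that carries an H2 symbol because of its position.

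RNA of this heat-producing fat depot was sequenced in bulk from 8 vehicle and 7 BPS samples, each labelled with its own animal identifier. BPS is an industrial relative of bisphenol A, and the series title places its environmental dose beside aging of the tissue. The labels used here name the tissue and the treatment, but neither the strain, sex and age of the mice nor the amount and length of exposure. Libraries carry the number of their title within each group, 1 to 8 for vehicle and 1 to 6 and 8 for BPS. Levels are in FPKM, fragments scaled to transcript length and to the total of the library, so levels of different genes can be compared per length. A gene was called at an adjusted p under 0.05 in a limma fit of log2(FPKM + 1) over all tested genes with Benjamini-Hochberg adjustment, and log2 changes are given on that scale with their standard errors (SE).

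BPS replicates 4, 5, 6 and 8 stood apart in genes outside the MHC. The mean of 4 Y-linked genes was 0.437%, 53.5%, 74.5% and 26.4% of the vehicle mean in these libraries, against 82.9% to 114.7% in the vehicle libraries and 92.0% to 102.2% in BPS replicates 1, 2 and 3. FPKM summed to 756600 to 920900 per library, the least in BPS replicate 4, and 11530 to 12310 genes reached 1 FPKM. The brown adipocyte markers Ucp1 and Cidea were abundant in every library but lowest in BPS replicate 4, at 82.3 FPKM and 319.6 FPKM. Their vehicle ranges were 358 to 2321 FPKM and 1087 to 4130 FPKM. Of the other listed brown adipocyte markers, Dio2, Cox7a1 and Otop1 were also lowest in BPS replicate 4. Ppargc1a and Elovl3 were not, and in that library both lay inside their vehicle ranges, 4.54 to 9.44 FPKM and 0.56 to 24.26 FPKM. Log2 changes are given with all 15 libraries and, where the text says so, with the 11 that remain without these 4. The p-values rest on the spread between libraries, and whether every library stands for its own mouse was not tested.

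Class I molecules are made by nearly all nucleated cells. A heavy chain pairs with beta-2 microglobulin (B2m) and shows peptides, cut by the proteasome and pumped into the endoplasmic reticulum by the Tap1 and Tap2 transporter, to CD8 T cells and natural killer cells. Class II molecules are made mainly by macrophages, dendritic cells and B cells, are held by the invariant chain (Cd74) until the H2-DM exchange factor loads them in endosomes, and are shown to CD4 T cells. The transactivator Nlrc5 drives class I genes and Ciita drives class II genes, in both cases without binding DNA directly and through factors on a shared promoter module of X and Y boxes. In bulk tissue, fewer cells of a type and less RNA per cell cannot be told apart.

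Across the 15 libraries, 1 of the 33 tested genes was called higher in BPS, Nlrc5, where 0.346% of all 12156 genes were called higher. No member was called lower, where 0.0658% of all genes were. At an unadjusted p under 0.05, 9 of the 33 members passed, or 27.3%, against 23.1% of all genes. Of those 9, 5 were higher in BPS, or 15.2% of the 33 (background 16.4%), and 4 were lower, or 12.1% of the 33 (background 6.7%). Log2 changes were positive for 22 members and negative for 11, where 58.5% and 41.5% of all genes had those signs. The groups overlapped in all 33 members, and they did not overlap in 0.576% of all genes. With the 11 libraries no member was called in either direction, where 0.278% of the 11885 genes tested there were called higher and 0.00841% lower, and 7 of 32 members had an unadjusted p under 0.05, all higher in BPS (background for higher 5.2%, for lower 2.88%, together 8.08%). In the authors' deposited table, which holds a q-value for each gene, 5 of the 45 members were higher at a q under 0.05 (background 3.16%) and none was lower (background 2.57%). Those 5 were Nlrc5, H2-T-ps, H2-Q1, H2-Bl and H2-Ea-ps. In BPS replicates 1, 2 and 3 the last 3 genes were at 0.45 FPKM or less. They reached 0.70 FPKM or more only in BPS replicates 4, 5, 6 and 8. For H2-T-ps, limma gave an adjusted p of 0.696 with the 11 libraries.

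**Figure D1:**
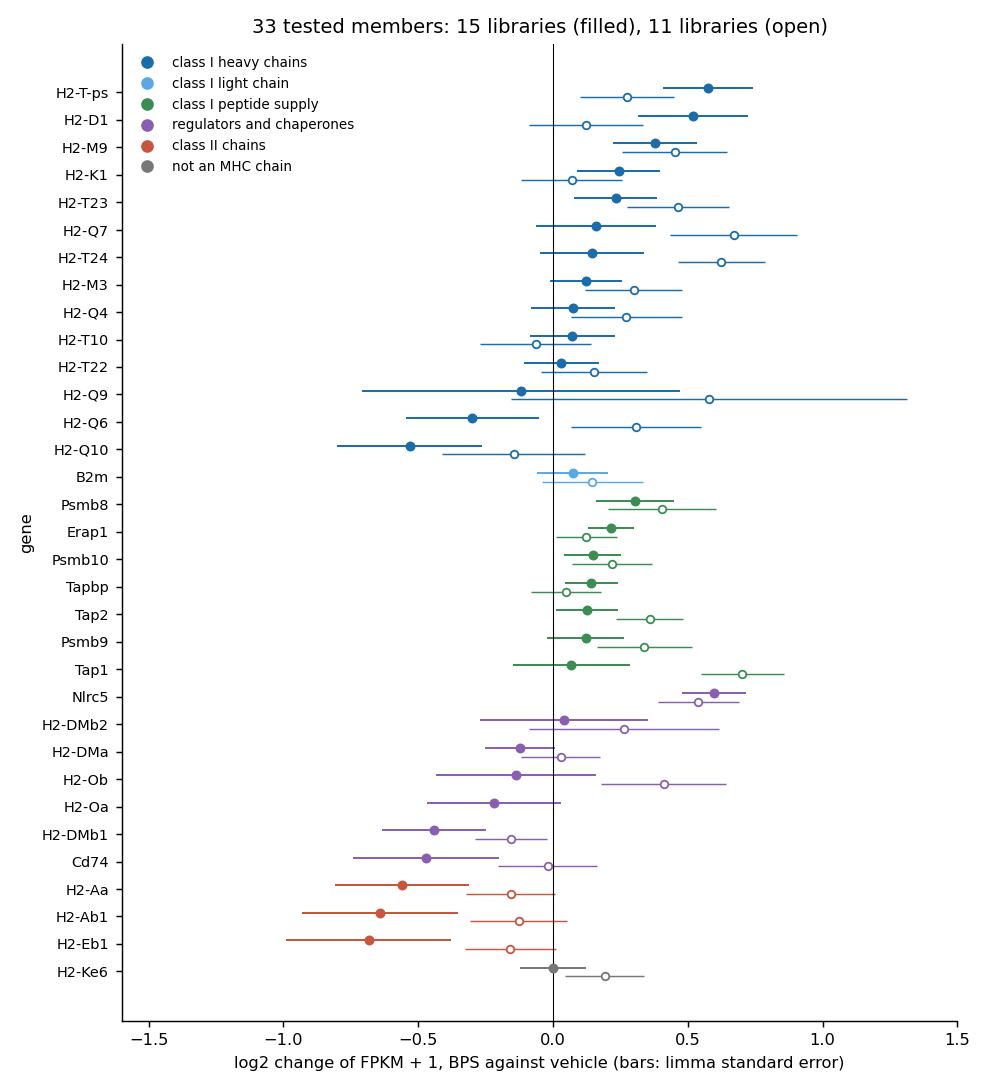
Log2 change of FPKM + 1 in BPS against vehicle for the 33 tested members, ordered by role, with limma standard errors as bars; filled points use all 15 libraries and open points the 11 libraries without BPS replicates 4, 5, 6 and 8. Filled class II points lie left of 0 between -0.68 and -0.56 and their open points between -0.16 and -0.13, while the open points of Tap1, H2-Q7 and H2-T24 lie to the right of their filled points, at 0.70, 0.67 and 0.62.

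Nlrc5, the class I transactivator, lies on chromosome 8 (94434335 to 94527272, GRCm38.p6), outside the MHC. Its level was 3.11 FPKM at the lowest, 4.53 at the median and 5.65 at the highest in vehicle, and 5.57, 7.06 and 8.79 FPKM in BPS. BPS replicate 6 was the only BPS library inside the vehicle range, and the other 6 BPS libraries lay above it. The mean rose from 4.48 ± 0.909 FPKM (SD, n = 8) to 7.26 ± 1.25 FPKM (SD, n = 7), a log2 change of 0.60 ± 0.12 (limma, Benjamini-Hochberg adjusted p = 0.0473). The call was close to the threshold. Without BPS replicates 4, 5, 6 and 8 the log2 change was 0.54 ± 0.15 and the adjusted p 0.297 in limma, although all of BPS replicates 1, 2 and 3, at 6.41, 6.40 and 7.86 FPKM, lay above every vehicle library. Leaving out any 1 library other than vehicle replicate 4 or BPS replicate 2 also ended the call, at adjusted p of 0.0509 to 0.111 (limma). The authors' deposited table gave a log2 ratio of 0.65 and a q-value of 0.000173. Ciita, the class II transactivator, was near 1 FPKM or below in every library (0.59 to 1.00 in vehicle, 0.30 to 1.09 in BPS) and was not tested. Its lowest values, 0.30, 0.41 and 0.53 FPKM, were those of BPS replicates 4, 8 and 5.

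Among the 23 class I heavy chains, 14 were tested. Their median log2 change was 0.13 with 15 libraries and 0.29 with 11, beside medians over all genes tested of 0.05 and 0.01. Positive changes were found for 11 of 14 and for 12 of 14, where 51.9% of all genes were positive and 48.1% negative with 11 libraries, and none was called in either fit. Per length, the classical chains H2-D1 and H2-K1, which present peptides to CD8 T cells, were the most abundant. In vehicle H2-D1 was at 788 ± 213 FPKM and H2-K1 at 768 ± 177 FPKM (SD, n = 8), a difference smaller than the spread of either. Together they made up 66.4% to 70.6% of the summed heavy chain level in vehicle. H2-Q10, a secreted class Ib chain best known from liver, followed at 180.2 ± 56.2 FPKM, then H2-T22 at 129 ± 31.3, H2-Q4 at 111 ± 28.3 and H2-Q6 at 101.5 ± 29.9 FPKM, neighbours whose vehicle ranges overlapped. B2m, the light chain that all of them share, was at 2181 ± 497 FPKM.

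H2-D1 (chromosome 17, 35263094 to 35267497) had a lowest, median and highest level of 533, 799 and 1196 FPKM in vehicle and of 804, 992 and 1899 FPKM in BPS. The highest 3 values were those of BPS replicates 4, 8 and 5, at 1899, 1396 and 1249 FPKM, while BPS replicates 1, 2 and 3 lay inside the vehicle range at 804 to 877 FPKM. The log2 change was 0.52 ± 0.21 (limma adjusted p = 0.161), and 0.12 ± 0.21 with 11 libraries. H2-K1 (chromosome 17, 33996012 to 34000619) was at 544, 732 and 1049 FPKM in vehicle and at 747, 813 and 1272 FPKM in BPS, and only BPS replicate 4 exceeded the vehicle range. Its log2 change was 0.24 ± 0.15 (limma adjusted p = 0.339), and 0.07 ± 0.19 with 11 libraries (limma adjusted p = 0.915). Within a library the ratio of H2-D1 to H2-K1 was 0.867 to 1.14 in vehicle. It was 1.00 to 1.17 in BPS replicates 1, 2 and 3, and 1.29 to 1.49 in BPS replicates 4, 5, 6 and 8. The last 4 did not overlap the other 11. How often ratios of other genes divide the libraries in this way was not counted, so the ratio is a description. Transcripts of H2-D1 shared 4.09% of their 100-base windows with transcripts of other genes and those of H2-K1 1.5%, a count of exact matches in the reference that covers neither mismatches nor other alleles.

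The regions just before the start sites of H2-D1, H2-K1, H2-Q10 and B2m are shown. H2-D1 and H2-K1 hold a class I element, enhancer A, that H2-Q10 lacks in the letters searched. The sequences come from RefSeq tables of GRCm38.p6 and run 5′ to 3′ on the gene's strand up to the base before the start. Capitals mark exact matches to the letters of known elements. These are the core of enhancer A (GGGATTCCC), bound by NF-kappa B, and the Y box (GATTGG, which reads CCAATC on the other strand), bound by NF-Y. An interferon-stimulated element (GAAANNGAA), bound by interferon regulatory factors, is marked too. For H2-K1, which has 2 start sites in the table, the downstream site was used.
H2-D1, chr17:35262914-35263093, plus strand: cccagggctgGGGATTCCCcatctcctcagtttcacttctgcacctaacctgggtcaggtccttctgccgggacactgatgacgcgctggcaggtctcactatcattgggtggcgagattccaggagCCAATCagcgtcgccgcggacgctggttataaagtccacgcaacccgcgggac
H2-K1, chr17:34000334-34000513, minus strand: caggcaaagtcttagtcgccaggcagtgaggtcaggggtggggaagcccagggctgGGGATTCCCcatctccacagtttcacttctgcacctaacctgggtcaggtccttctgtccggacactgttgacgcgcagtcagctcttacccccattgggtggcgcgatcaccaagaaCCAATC
H2-Q10, chr17:35469909-35470088, plus strand: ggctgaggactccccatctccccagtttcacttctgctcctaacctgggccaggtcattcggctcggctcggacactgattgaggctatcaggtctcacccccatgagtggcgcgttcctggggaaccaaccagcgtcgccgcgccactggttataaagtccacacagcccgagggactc
B2m, chr2:122147507-122147686, plus strand: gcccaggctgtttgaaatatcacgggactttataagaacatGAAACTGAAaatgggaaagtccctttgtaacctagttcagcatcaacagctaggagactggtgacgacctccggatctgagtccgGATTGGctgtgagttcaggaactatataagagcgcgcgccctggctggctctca
Counted from the start site, enhancer A lay at -170 to -162 in H2-D1 and at -124 to -116 in H2-K1. The Y box letters lay at -53 to -48 and at -6 to -1. Whether these letters are the Y box of the X and Y module in H2-D1 and H2-K1 was not tested. Both regions also hold cattgg further upstream, which differs from the letters searched in its first base. In B2m the interferon-stimulated element lay at -139 to -131 and the Y box at -54 to -49. No motif overlapped another. Windows of 300 bases (250 before to 50 after the start) were available for 33 of the 45 members and for 27025 genes in all, and both strands were searched. The enhancer A letters were found in 4 members, H2-D1, H2-K1, H2-Q6 and H2-Q7, and in 0.414% of all genes. H2-Q6 and H2-Q7 hold these letters but were at mean levels over all libraries of 94.1 and 59.7 FPKM. H2-Q10, which lacks them, was at 156.7 FPKM, so letters and level did not go together in all of these genes. The Y box letters were found in 23 of the 33 members, against 18.2% of all genes, and among class I heavy chains in 11 of 17. The letters of the interferon-stimulated element were found in B2m, Erap1, H2-T22 and H2-T23, against 9.76% of all genes. The printed H2-D1, H2-K1 and H2-Q10 regions hold tttcacttc, which resembles this element on the other strand but does not match the letters searched. A missing match therefore does not mean that a gene lacks an interferon element. The H2 genes are copies of one another, so these matches are not independent, and a match is a description of letters, not of binding.

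Several class Ib genes of the Q and T regions, which encode chains of limited variability that engage natural killer and unconventional T cells, were at different levels in BPS replicates 1, 2 and 3 and in BPS replicates 4, 5, 6 and 8. H2-Q6 was at 61.8, 91.8 and 140.1 FPKM in vehicle (lowest, median and highest) and at 48.9, 62.3 and 140.2 FPKM in BPS. BPS replicates 4, 5 and 8 lay below the vehicle range and BPS replicate 6, at 62.3 FPKM, at its lower edge, while BPS replicates 1, 2 and 3 lay at 96.8 to 140.2 FPKM. The log2 change was -0.30 ± 0.25 with 15 libraries and 0.31 ± 0.24 with 11, and limma's adjusted p, 0.462 and 0.743, called neither. H2-Q7 was at 32.9 to 73.3 FPKM in vehicle, at 44.4 to 48.0 FPKM in BPS replicates 4, 5, 6 and 8, and at 76.9 to 98.9 FPKM in BPS replicates 1, 2 and 3, which all lay above the vehicle range. H2-T24 showed the same order, with 4.89 to 9.59 FPKM in vehicle, 4.36 to 7.29 FPKM in the 4 libraries and 9.75 to 11.8 FPKM in BPS replicates 1, 2 and 3. The 11-library log2 changes of H2-Q7 and H2-T24 were 0.67 ± 0.24 and 0.62 ± 0.16, for which limma gave adjusted p of 0.455 and 0.244.

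With those 11 libraries, BPS lay wholly above vehicle in 4 of 32 members, Nlrc5, Tap1, H2-Q7 and H2-T24, or 12.5%, against 1.94% of all genes tested there, and wholly below vehicle in 0 of 32, against 0.926%. No H2 or peptide supply gene passed limma's threshold in that fit, in which BPS has 3 libraries. Summed endothelial markers were also higher in BPS replicates 1, 2 and 3 (292 to 458 FPKM) than in BPS replicates 4, 5, 6 and 8 (167 to 275 FPKM), and their part in these class I values was not tested. Against their neighbour H2-Q4, the 4 libraries also differed in proportion. The ratio of H2-Q6 to H2-Q4 was 0.830 to 0.991 in vehicle. It was 0.838 to 0.992 in BPS replicates 1, 2 and 3, and 0.411 to 0.692 in BPS replicates 4, 5, 6 and 8. For this ratio too, how often those of other genes divide the libraries in this way was not counted. H2-Q4 itself was at 74.45, 105.5 and 147 FPKM in vehicle and at 90.1, 116 and 141 FPKM in BPS, within the vehicle range throughout, with a log2 change of 0.07 ± 0.16 (limma adjusted p = 0.791), and of 0.27 ± 0.21 with 11 libraries. H2-Q6 and H2-Q7 shared 10.8% and 17.2% of their 100-base windows with other genes, mostly with each other, so reads can be divided between them only by estimate. Alleles that differ from the reference can move single values too, and the part of strain in these values was not tested, since the labels used here give none.

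Of the other tested heavy chains, H2-Q10 was at 108, 174 and 284 FPKM in vehicle and at 49.7, 117 and 212 FPKM in BPS. Only BPS replicates 4 and 8 lay below the vehicle range, at 49.7 and 92.2 FPKM. The log2 change was -0.53 ± 0.27 (limma adjusted p = 0.248), and -0.15 ± 0.26 with 11 libraries. H2-T22, a ligand of gamma delta T cells, was at 83.3, 125 and 177 FPKM in vehicle and at 112, 124 and 151 FPKM in BPS, all BPS libraries lying inside the vehicle range. H2-T23, the mouse Qa-1 chain read by natural killer receptors, was at 62.1 to 105 FPKM in vehicle and at 69.6 to 128 FPKM in BPS, with a log2 change of 0.23 ± 0.15 (limma adjusted p = 0.36), and of 0.46 ± 0.19 with 11 libraries. H2-M3, which presents formylated bacterial peptides, was at 8.61 to 15.3 FPKM in vehicle and at 10.1 to 15.7 FPKM in BPS. H2-T10, H2-T24 and H2-M9 lay between 1 and 12 FPKM. H2-M9 was at 1.23 to 3.34 FPKM in vehicle and at 1.64 to 3.86 FPKM in BPS, with 6 of 7 BPS libraries above the vehicle mean, a log2 change of 0.38 ± 0.15 (limma adjusted p = 0.169), and of 0.45 ± 0.20 with 11 libraries. H2-Q9, at 0 to 14.0 FPKM in vehicle and 0.14 to 12.9 FPKM in BPS, was listed at 0 in vehicle replicate 8 and at 0.14 FPKM in BPS replicate 5, beside 2.43 FPKM or more in every other library. With 11 libraries H2-T22, H2-M3, H2-T10 and H2-Q9 had log2 changes of 0.15, 0.30, -0.06 and 0.58, and with 15 of 0.03, 0.12, 0.07 and -0.12, none of them called.

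H2-T-ps had the second smallest p of all members. It was at 1.69 to 3.69 FPKM in vehicle, at 2.49 to 4.19 FPKM in BPS replicates 1, 2 and 3 and at 3.91 to 7.41 FPKM in BPS replicates 4, 5, 6 and 8, so that 5 of 7 BPS libraries lay above every vehicle library. Its log2 change was 0.58 ± 0.17 (limma adjusted p = 0.104), and 0.28 ± 0.17 with 11 libraries, an adjusted p of 0.696. The authors' deposited table gave a q-value of 0.0439. B2m was at 1561, 2157 and 3096 FPKM in vehicle and at 2012, 2221 and 2509.5 FPKM in BPS, with every BPS library inside the vehicle range and a log2 change of 0.07 ± 0.13 (limma adjusted p = 0.755), and of 0.15 ± 0.19 with 11 libraries.

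**Figure D2:**
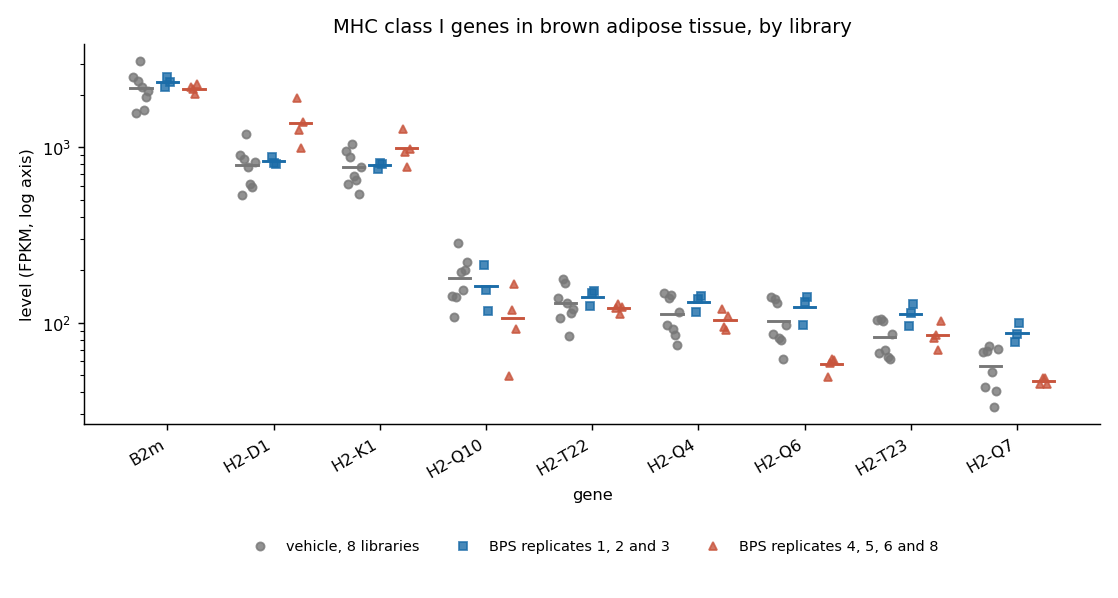
Levels in FPKM, on a log axis, of B2m and the 8 most abundant class I heavy chains in each of the 15 libraries, with a horizontal line at the mean of each set of libraries. H2-D1 is highest in BPS replicates 4, 5 and 8 (triangles, 1249 to 1899 FPKM), while for H2-Q6 the triangles sit at 48.9 to 62.3 FPKM, around the lowest vehicle library at 61.8 FPKM.

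The 7 genes of class I peptide supply all had positive log2 changes, between 0.07 and 0.30, with a median of 0.14 with 15 libraries and 0.34 with 11, beside 0.05 and 0.01 over all genes, and none was called in either fit. Psmb8, a catalytic subunit of the immunoproteasome, was at 51.6, 71.9 and 104.5 FPKM in vehicle and at 69.6, 91.0 and 108 FPKM in BPS, and 6 of 7 BPS libraries exceeded the vehicle mean of 73.2 FPKM. Its log2 change was 0.30 ± 0.15 (limma adjusted p = 0.224). Erap1, the aminopeptidase that trims peptides in the endoplasmic reticulum, was at 10.1, 12.8 and 15.4 FPKM in vehicle and at 13.3, 14.2 and 17.1 FPKM in BPS, with all 7 BPS libraries above the vehicle mean of 12.6 FPKM and 3 above its range. Its log2 change was 0.22 ± 0.09 (limma adjusted p = 0.163), and 0.12 ± 0.11 with 11 libraries. Tapbp (tapasin, the loading chaperone), Psmb10 (another immunoproteasome subunit) and Tap2 had log2 changes of 0.14 ± 0.10, 0.15 ± 0.11 and 0.13 ± 0.11, and limma gave adjusted p of 0.379, 0.396 and 0.5. With 11 libraries Psmb8, Tapbp, Psmb10 and Tap2 were at 0.40 ± 0.20, 0.05 ± 0.13, 0.22 ± 0.15 and 0.36 ± 0.12, and none was called.

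Tap1 showed the widest division among BPS libraries in this set. It was at 14.5, 19.25 and 23.9 FPKM in vehicle, at 28.9 to 37.5 FPKM in BPS replicates 1, 2 and 3, and at 13.7 to 14.9 FPKM in BPS replicates 4, 5, 6 and 8. The first 3 lay above the vehicle range and the other 4 at its lower edge, of which 2 were below it. With 15 libraries the log2 change was 0.07 ± 0.22 (limma adjusted p = 0.866), and with 11 it was 0.70 ± 0.15 (limma adjusted p = 0.132). Irf1, a transcription factor through which interferon gamma induces Tap1 and other MHC genes, was also highest in BPS replicates 1, 2 and 3. Irf1 was at 27.8 to 45.2 FPKM in vehicle, at 56.0 to 72.8 FPKM in BPS replicates 1, 2 and 3 and at 36.7 to 51.7 FPKM in the 4 libraries. With 11 libraries the log2 change of Irf1 was 0.77 ± 0.14 (limma adjusted p = 0.0566), which was not called.

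The 3 tested class II chains all had negative log2 changes with 15 libraries, and none was called. H2-Aa (alpha chain of the A molecule, chromosome 17, 34282744 to 34287823) was at 157, 206 and 270.3 FPKM in vehicle and at 51.1, 177 and 198 FPKM in BPS. H2-Ab1, its beta chain, was at 97.9, 132 and 174 FPKM in vehicle and at 25.5, 113 and 136 FPKM in BPS. H2-Eb1, the beta chain of the E molecule, was at 75.8, 101.5 and 134 FPKM in vehicle and at 16.6, 90.1 and 93.4 FPKM in BPS. For all 3 genes BPS replicates 4, 8 and 5 were the lowest libraries, in that order, and lay below every vehicle library, while the other 4 BPS libraries lay inside the vehicle range. The log2 changes were -0.56 ± 0.25, -0.64 ± 0.29 and -0.68 ± 0.31, for which limma gave adjusted p of 0.195, 0.202 and 0.199. With 11 libraries they were -0.16 ± 0.16, -0.13 ± 0.18 and -0.16 ± 0.17.

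The chains stayed near the same proportions in most libraries. The ratio of H2-Aa to Cd74 was 0.585 to 0.774 in all 15 libraries, although the summed class II level ran from 106 to 579 FPKM. The ratio of H2-Eb1 to H2-Aa was 0.484 to 0.526 in vehicle and 0.468 to 0.518 in BPS replicates 1, 2 and 3. It was 0.324, 0.4695, 0.460 and 0.472 in BPS replicates 4, 5, 6 and 8. All of these 4 lay below the vehicle range, as did BPS replicate 2 at 0.468. The ratio of H2-Ab1 to H2-Aa was 0.567 to 0.689 in vehicle, and 0.499 and 0.551 in BPS replicates 4 and 5. The part of alleles that differ from the reference in these ratios was not tested.

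Start regions of 3 class II genes are shown with the module that Ciita acts through. Capitals mark the core of the X box (AACNGNTG), bound by the RFX complex, a TGACGTCA element (X2 or cyclic AMP response element), bound by CREB family proteins, and the Y box.
H2-Aa, chr17:34287824-34287943, minus strand: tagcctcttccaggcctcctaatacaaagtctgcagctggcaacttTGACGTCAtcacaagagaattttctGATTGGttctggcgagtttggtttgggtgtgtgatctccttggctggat
H2-Eb1, chr17:34305747-34305866, plus strand: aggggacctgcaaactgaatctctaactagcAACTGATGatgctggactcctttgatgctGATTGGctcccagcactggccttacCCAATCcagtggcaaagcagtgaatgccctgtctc
H2-DMb1, chr17:34153071-34153190, plus strand: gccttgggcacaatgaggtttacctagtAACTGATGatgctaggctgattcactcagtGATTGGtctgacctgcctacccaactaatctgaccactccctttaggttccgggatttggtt
The X box lay at -89 to -82 in H2-Eb1 and at -92 to -85 in H2-DMb1, and the first Y box at -60 to -55 and at -62 to -57, so that both genes hold the pair at nearly the same distance. H2-Aa had no match to these X box letters in this window and held TGACGTCA at -74 to -67 and the Y box at -49 to -44. The X box letters occurred in 5 of the 33 members with a window (H2-DMb1, H2-DMb2, H2-Eb1, H2-Eb2 and H2-M2) and in 11.9% of all genes, and TGACGTCA in 1 member and 2.03% of all genes. The Y box letters occurred in all 3 class II chains and all 5 regulators and chaperones that had a window.

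Cd74, the invariant chain, was the most abundant gene of the class II pathway, at 223, 308 and 415 FPKM in vehicle and at 73.6, 274 and 323 FPKM in BPS. Its lowest libraries were again BPS replicates 4, 8 and 5. The log2 change was -0.47 ± 0.27 (limma adjusted p = 0.299), and -0.02 ± 0.18 with 11 libraries. H2-DMb1, the beta chain of the exchange factor, was at 10.4, 11.7 and 17.5 FPKM in vehicle and at 3.75, 10.6 and 12.2 FPKM in BPS, with a log2 change of -0.44 ± 0.19 (limma adjusted p = 0.191) that was -0.15 ± 0.13 with 11 libraries (limma adjusted p = 0.76). H2-DMa, its alpha chain, was at 6.03, 6.90 and 9.84 FPKM in vehicle and at 4.23, 6.85 and 8.36 FPKM in BPS, with a log2 change of -0.12 ± 0.13 (limma adjusted p = 0.574), and of 0.03 ± 0.15 with 11 libraries. BPS replicate 4 alone lay below the vehicle range of H2-DMa. H2-Oa and H2-Ob, which form the inhibitor of H2-DM found chiefly in B cells, were at 0.32 to 2.57 and 0.93 to 4.11 FPKM in vehicle, while BPS replicate 4 had 0.00 and 0.06 FPKM. The H2-Oa log2 change was -0.22 ± 0.25 (limma adjusted p = 0.601), and it was not tested with 11 libraries.

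**Figure D3:**
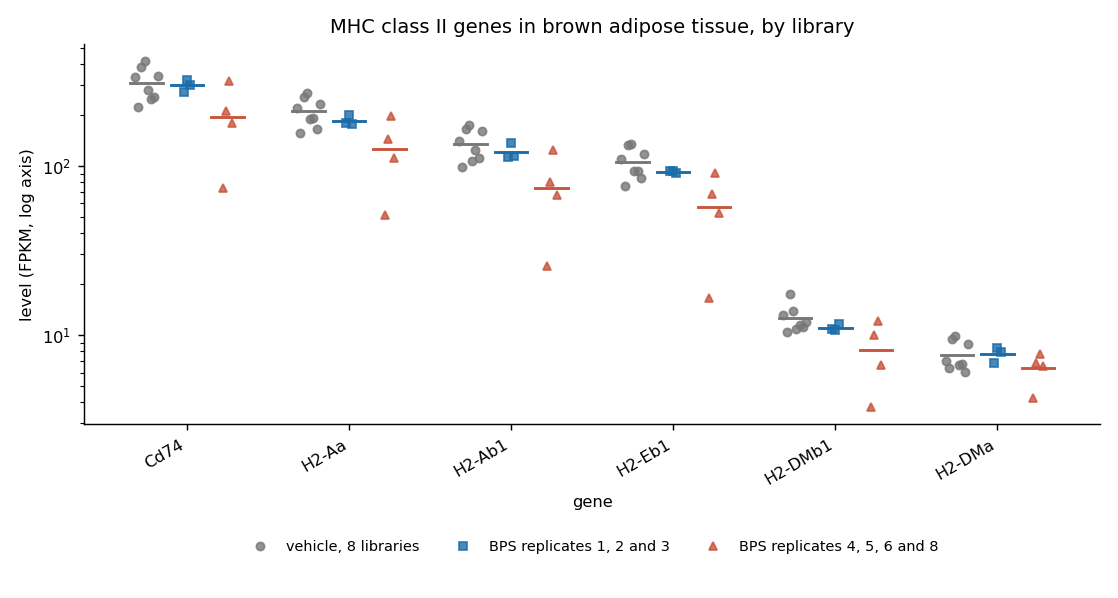
Levels in FPKM, on a log axis, of the 6 most abundant class II pathway genes in each of the 15 libraries, with a horizontal line at the mean of each set of libraries. In each gene the lowest triangle is BPS replicate 4, for example 73.6 FPKM for Cd74 and 16.6 FPKM for H2-Eb1, and BPS replicates 1, 2 and 3 (squares) lie inside the vehicle range.

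Summed over genes, the 2 classes differed most in the same libraries. The 23 heavy chains summed to 2250 ± 529 FPKM in the 8 vehicle libraries and to 2711 ± 482 FPKM in the 7 BPS libraries (SD), and the 5 class II chains to 450 ± 91.8 FPKM and 324 ± 116 FPKM. In both classes the ranges of the groups overlapped. In BPS replicates 1, 2 and 3 alone the sums were 2419 ± 34.1 FPKM and 399 ± 24.9 FPKM (SD, n = 3). The class I sum divided by the class II sum was 4.38 to 5.59 in vehicle and 5.65, 9.09, 11.9 and 34.7 in BPS replicates 6, 5, 8 and 4. In BPS replicates 1, 2 and 3 it was 5.71 to 6.36, so all 7 BPS libraries had a higher ratio than every vehicle library. The ratio was chosen after its parts had been seen and is given as a description.

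**Figure D4:**
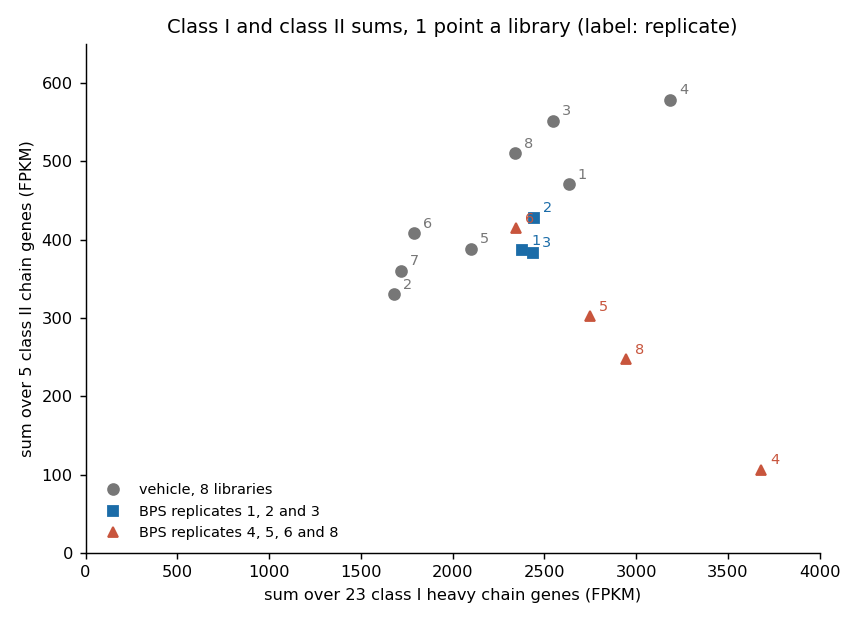
Sum of FPKM over 23 class I heavy chain genes (horizontal axis) against the sum over 5 class II chain genes (vertical axis), 1 point a library, labelled by replicate number. Vehicle libraries run along a diagonal from 1682 and 330 FPKM to 3187 and 579 FPKM, and BPS replicates 5, 8 and 4 lie to its lower right, down to 3683 and 106 FPKM.

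Markers of the cells that carry class II molecules differed between the same libraries, and not in 1 direction. The summed B cell markers (8 genes) were 8.97 to 42.1 FPKM in vehicle, 15.1 to 23.8 FPKM in BPS replicates 1, 2 and 3, and 0.71, 8.84, 30.9 and 4.49 FPKM in BPS replicates 4, 5, 6 and 8. Their 4 tested members had negative log2 changes with 15 libraries (median -0.24), while the 3 tested with 11 were positive (median 0.40), and none was called in either. In BPS replicate 4 the defining markers Cd79a, Ms4a1 and Pax5 were at 0.10, 0.00 and 0.00 FPKM. The summed macrophage markers (11 genes) were 275 to 413 FPKM in vehicle, 269 to 322 FPKM in BPS replicates 1, 2 and 3, and 505 to 808 FPKM in the 4 libraries, which were therefore the highest of all 15. Cd68, a lysosomal protein of macrophages, was at 24.2 to 46.4 FPKM in those 4 libraries and at 6.73 to 13.1 FPKM in vehicle. Lyz2, lysozyme, the largest part of this sum, was at 229 to 405 FPKM against 112 to 171 FPKM. Cd163, Fcgr1 and Timd4 overlapped their vehicle ranges in the 4 libraries, while every other listed marker lay above. Fcgr1 was at 0.70 to 1.54 FPKM there and at 0.88 to 2.28 FPKM in vehicle. All 10 tested macrophage markers had positive log2 changes with 15 libraries (median 0.40), while 8 of 10 were negative with 11 (median -0.14), and none was called in either. The summed dendritic cell markers (9 genes) were 14.75 to 25.7 FPKM in vehicle and 14.4 to 28.1 FPKM in BPS, the lowest in BPS replicate 4. Zbtb46 was the largest part of this sum, and its members did not move together. In the 4 libraries Flt3 was at 0.18 to 0.26 FPKM, below the vehicle range of 0.27 to 0.65 FPKM. Itgax was at 1.05 to 3.18 FPKM there, above the vehicle range of 0.37 to 0.96 FPKM. Both genes were of low level and were not tested. The summed T cell markers (7 genes) were 5.45 to 17.4 FPKM in vehicle and 5.69 to 19.5 FPKM in BPS. Summed white adipocyte markers were 608 to 2631 FPKM in vehicle and 2505 to 6058 FPKM in the 4 libraries. Skeletal muscle markers were 247 to 39380 FPKM in vehicle and 100.2 to 6796 FPKM in BPS. Summed endothelial markers (5 genes) were 207.5 to 409 FPKM in vehicle, 292 to 458 FPKM in BPS replicates 1, 2 and 3, and 167 to 275 FPKM in the 4 libraries, higher in the first 3 than in the other 4 as for Tap1, H2-Q7 and H2-T24. With 11 libraries all 5 endothelial markers were positive (median 0.51), 4 at an unadjusted p under 0.05 and none called, and with 15 libraries 2 of 5 were positive (median -0.01). The part of these cell types in the MHC levels was not tested.

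H2-Ea-ps was the member with the sharpest division among libraries. It is the alpha chain gene of the E molecule, H2-Ea in RefSeq (chromosome 17, 34341952 to 34344645), annotated as a transcribed pseudogene in this reference. In strains of the b haplotype, to which the reference strain belongs, a deletion at its promoter silences the gene, while strains of some other haplotypes express it. It was listed at 0 in all 8 vehicle libraries and in BPS replicates 1, 2 and 3, while BPS replicates 4, 5, 6 and 8 had 12.96, 9.92, 4.0 and 15.3 FPKM. Because it reached 1 FPKM in 4 libraries, it was not tested. Against H2-Eb1 in the same library it stood at 78.2%, 14.6%, 4.44% and 29.0%. This share was highest in BPS replicate 4, then 8, 5 and 6, the order of their Y-linked levels from lowest to highest. H2-Eb1, its divisor, rose in the same order from 16.6 to 90.1 FPKM. The level of H2-Ea-ps alone was highest in BPS replicate 8, then 4, 5 and 6. None of its 100-base windows occurred in a transcript of another gene. Over the whole table, 5 of 16774 genes were listed at 0 in exactly the same libraries. The other 4 were LOC100862433 (1.86 to 4.73 FPKM in the 4 libraries), Rnase2a (0.45 to 3.73), Armc12 (0.10 to 0.25) and Fam83b (0.02 to 0.04).

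A pair of class I genes of low level followed the same libraries. H2-Q1 was at 0 to 0.49 FPKM in vehicle, at 0.12 to 0.45 FPKM in BPS replicates 1, 2 and 3, while BPS replicates 4, 5, 6 and 8 had 6.16, 2.94, 1.95 and 4.21 FPKM. H2-Bl, a transcribed pseudogene, was listed at 0 in 10 libraries, at 0.09 FPKM in vehicle replicate 4, and at 2.89, 1.09, 0.70 and 1.6 FPKM in those same 4. For both genes the level among the 4 was highest in BPS replicate 4, then 8, 5 and 6. Neither was tested, and H2-Q1 shared 12.4% of its 100-base windows with other genes. Whether these libraries came from mice of another strain or sex, or from more than 1 mouse, was not tested beyond these values. The remaining genes that were not tested, H2-Q2, H2-Q8, H2-T3, H2-M1, H2-M2, H2-M5, H2-M11 and H2-Eb2, stayed under 1 FPKM in every library.

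**Figure D5:**
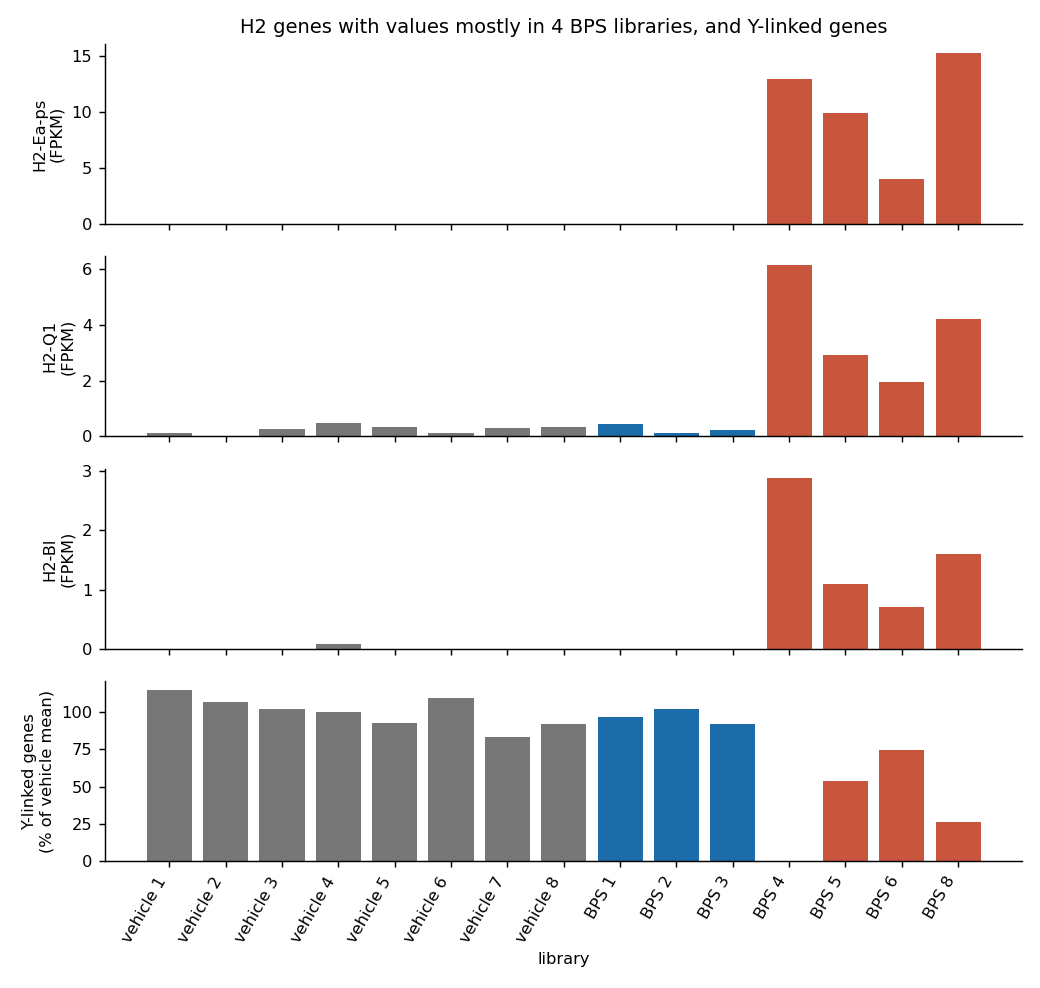
FPKM of H2-Ea-ps, H2-Q1 and H2-Bl in each library, and the mean level of 4 Y-linked genes as a percentage of the vehicle mean (lowest panel), with vehicle in grey, BPS replicates 1, 2 and 3 in blue and BPS replicates 4, 5, 6 and 8 in red. H2-Ea-ps is listed at 0 in 11 libraries and is at 4.0 to 15.3 FPKM in the 4 red libraries, in which the Y-linked level is 0.437% to 74.5%.

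Other genes of antigen presentation were taken from 6 lists chosen with earlier results of these data known. No list had a called member in either direction, with 15 libraries or with 11. Of all genes, only 0.346% were called higher and 0.0658% lower with 15 libraries, and 0.278% and 0.00841% with 11. Lists this short could therefore hold no call without differing from all genes. Of the list of class I peptide loading and the proteasome activator, 9 of 11 tested genes had positive changes with a median of 0.17. Calr (calreticulin, a chaperone of the loading complex) was at 119.5 to 190 FPKM in vehicle and at 172 to 286 FPKM in BPS, with a log2 change of 0.46 ± 0.11 (limma adjusted p = 0.0789). Pdia3 (the disulfide isomerase ERp57) and Canx (calnexin) had log2 changes of 0.31 ± 0.11 and 0.23 ± 0.09, for which limma gave adjusted p of 0.124 and 0.149. With 11 libraries 10 of 11 genes of this list were positive with a median of 0.13, and Calr, Pdia3 and Canx were at 0.29 ± 0.13, 0.13 ± 0.12 and 0.12 ± 0.11. Of the class I-like molecules, 5 of 5 tested genes were positive with a median of 0.15, where 58.5% of all genes were positive, and 3 of 5 were positive with 11 libraries, with a median of 0.0017, where 51.9% of all genes were. The smallest p was that of the Fc receptor Fcgrt at 0.26 ± 0.14 (limma adjusted p = 0.267), and at 0.40 ± 0.20 with 11 libraries.

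Of the list of class II processing and co-stimulation, 10 of 11 tested genes were positive with a median of 0.22 with 15 libraries, and 6 of 10 with a median of 0.03 with 11, the opposite sign to the class II chains themselves. Ctsl, a lysosomal protease that degrades the invariant chain, was at 171 to 246 FPKM in vehicle and at 221 to 380 FPKM in BPS, with a log2 change of 0.51 ± 0.13 (limma adjusted p = 0.0812). It was highest in BPS replicates 4 and 8, at 380.0 and 374 FPKM. Ctss, the cathepsin of antigen-presenting cells, had a log2 change of 0.57 ± 0.24 (limma adjusted p = 0.17), Lgmn of 0.46 ± 0.19 (0.168) and the thiol reductase Ifi30 of 0.46 ± 0.16 (0.127). With 11 libraries these 3 changes were -0.07 ± 0.15, -0.07 ± 0.09 and 0.02 ± 0.12, and that of Ctsl was 0.24 ± 0.11. Marchf1 and Marchf8, ubiquitin ligases that remove class II from the surface, had 0.22 ± 0.11 and 0.22 ± 0.11, with adjusted p of 0.25 and 0.218. Marchf8 was at 0.04 ± 0.13 with 11 libraries, where Marchf1 was not tested. Of the factors that bind the class II promoter module, 3 of 7 were positive with 15 libraries (median -0.05) and 6 of 7 with 11 (median 0.06), and Rfx5, which binds the X box, was at 0.18 ± 0.07 (limma adjusted p = 0.143), and at 0.20 ± 0.09 with 11 libraries.

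Of the interferon gamma list, 7 of 10 tested genes were positive with a median of 0.18, and 8 of 10 with 11 libraries with a median of 0.13. Ifngr1, the ligand-binding receptor chain, was at 51.7 to 108 FPKM in vehicle, 76.9 to 87.5 FPKM in BPS replicates 1, 2 and 3 and 111 to 204 FPKM in the 4 libraries, with a log2 change of 0.71 ± 0.22 (limma adjusted p = 0.109), and of 0.18 ± 0.19 with 11 libraries. Irf1 had a log2 change of 0.46 ± 0.14 (limma adjusted p = 0.113) with 15 libraries. Ifng itself was at 0.38 FPKM or less in every library and was not tested. Of a list of T cell and natural killer receptors that also holds myeloid receptors, 4 were tested and 3 were positive. The median was 0.29 with 15 libraries and 0.15 with 11. Lag3 and Klrd1, found on T cells and natural killer cells, were at -0.21 ± 0.12 and 0.04 ± 0.20 with 15 libraries. Lilrb4a and Pirb, inhibitory receptors of myeloid cells, the second of which binds class I molecules, had log2 changes of 0.78 ± 0.22 and 0.55 ± 0.16, for which limma gave adjusted p of 0.0955 and 0.104. Both were highest in BPS replicates 4, 5, 6 and 8, at 14.05 to 24.4 and 5.70 to 8.70 FPKM, against 5.79 to 8.87 and 2.73 to 4.34 FPKM in vehicle, and their 11-library changes were 0.16 ± 0.12 and 0.13 ± 0.13.

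H2-DMb2, H2-Ob and H2-Ke6 complete the tested members, with log2 changes of 0.04 ± 0.31, -0.14 ± 0.30 and 0.00051 ± 0.12, for which limma gave adjusted p of 0.946, 0.796 and 0.998. With 11 libraries they were at 0.26 ± 0.35, 0.41 ± 0.23 and 0.19 ± 0.15. H2-Ke6 shared 42.8% of its windows with an overlapping gene model, so its level of 193 FPKM in both groups may hold reads of that model. Psmb9, the remaining immunoproteasome subunit, had 0.12 ± 0.14 (limma adjusted p = 0.616), and 0.34 ± 0.18 with 11 libraries.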

How the data were processed

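The deposited table gave FPKM for 15 libraries to 2 decimals, made by the authors. The submitters' processing notes name RSEM 1.3.1, Bowtie2, DESeq2 1.4.5 and HISAT2 2.1.0, and the build GRCm38.p6. It also held the authors' log2 ratio of BPS to vehicle, p-value and q-value per gene, printed here only as theirs. Per the labels' protocols, poly(A) RNA was selected and cDNA was random-primed; whether strand was kept is not stated there, so reads of a gene and of an overlapping one cannot be told apart. Depth in reads is unknown. RSEM divides reads of near-identical paralogs by estimate.

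From the FPKM, log2(FPKM + 1) was tested with limma 3.58.1 in R 4.3.3 (intensity trend, robust spread, two-sided, Benjamini-Hochberg over the 12156 genes that reached 1 FPKM in 7 or more libraries, threshold 0.05, no covariate). The design named edgeR only for counts, which were not used. The steps were tested on simulated data. Errors of FPKM are SDs. All 45 members matched a RefSeq gene table of GRCm38.p6, and 39 lie on chromosome 17. Of 126 entries in 15 gene lists, 121 matched. Marchf1 and Marchf8 stand in the table as dates and were matched by Entrez identifier. Shared windows are the 100-base windows of a gene's GENCODE transcripts found in transcripts of another gene, for 43 members.

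Members and lists were chosen with earlier results of these data known. By the rule for named genes, called members and the 5 of smallest p in each role got full statistics, the 6 most abundant class I and class II genes, B2m and H2-Ea-ps got their levels, and up to 5 genes of smallest p of each other list were named; further genes (H2-Q1, H2-Q7, H2-Bl, H2-T23, H2-T24, Tap1, the marker genes) were chosen after their values were seen. Summed levels and ratios got no test. A few genes of the lists are not reported here, though the fits, counts and sums include them. The replicate number was tried as a block, but it did not clearly pair the libraries. Of 7 pairs, 4 had a correlation of deviations over 0.1, but only 2 were best matched to their own number.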

Additional observations from a re-analysis of the deposited data

Results flagged for a closer look

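In 66 groups of libraries (33 tested genes in each of vehicle and BPS), the gap of the extreme library to the next was set against Dixon's 95% critical value, which chance passes in about 1 group in 20. There were 2 such libraries. H2-Ob, a chain of the H2-DM inhibitor found chiefly in B cells, had 4.11 FPKM in vehicle replicate 8, while the other 7 vehicle libraries had 0.93 to 2.02 FPKM. The summed B cell markers were also highest there, at 42.1 FPKM. H2-DMa, the alpha chain of the class II exchange factor, had 4.23 FPKM in BPS replicate 4, while the other 6 BPS libraries had 6.58 to 8.36 FPKM. That library was also the lowest for the class II chains and for the summed B cell markers, at 0.71 FPKM. The part of B cells in either value was not tested.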

How the results depend on the processing

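The count of members called higher was 1, Nlrc5, and became 0 with no filter on low values, with a pseudocount of 5, without the 4 BPS libraries with low Y-linked levels, and without the 3 vehicle libraries high in muscle transcripts. With each library left out in turn it ranged from 0 to 1, and only without vehicle replicate 4 or BPS replicate 2 was it 1. The adjusted p of Nlrc5 ran from 0.0348 to 0.32 over the 26 limma alternatives, 9 of which kept the call, and its log2 change was positive in all. With the replicate block it was 0.0492. The count called lower was 0 in each alternative. Of 582 alternative log2 changes of the 22 named members, 549 kept sign and call, 17 lost the call (all Nlrc5), 1 gained it (H2-T-ps in the authors' table) and 15 changed sign. Without the 4 BPS libraries H2-Q6 was at 0.31 and H2-DMa at 0.028. Without the 3 vehicle libraries B2m was at -0.10, H2-Q4 at -0.0092 and H2-T22 at -0.15. In the authors' table B2m was at -0.026, H2-Q4 at -0.0072 and H2-T22 at -0.040. With median scaling H2-T22 was at -0.015, and with the replicate block H2-Q4 was at -0.0021. With 1 library left out, H2-Q4 ran from -0.0021 to 0.14 and H2-T22 from -0.054 to 0.10. The cause was not tested. The BPS minus vehicle difference of the class I sum was 461 FPKM with all libraries, 389.9 FPKM with median scaling and 169 FPKM without the 4 libraries. That of the class II sum was -126 FPKM, -133 FPKM and -50.9 FPKM. With 3 BPS libraries left in the smaller fit and no read counts, small changes and genes near 1 FPKM were at the limit of what these data can show.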
